A study of Homo sapiens with 6 samples.

Results

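Fibronectin and 54 further genes for glycoproteins and proteoglycans of the extracellular matrix are followed here in HCEC 1CT and in 1CT-A, its APC depleted version. HCEC 1CT is an immortalized line that was derived from normal human colon and is labelled as epithelial. The members are the rows of the 6 count files that carry 1 of 55 listed gene symbols, out of 24462 different symbols. No threshold on a value is stated for the list, but it was drawn up with results of these data known, so the members count as selected on their CPM and on their fold change between the lines. The members' differences between the lines are therefore a description, and how many of them pass a test is not independent evidence about matrix genes. The labels give 3 libraries of 1CT (genotype WT) and 3 of 1CT-A (genotype APC KD), all untreated and all grown in DMEM and M199 with 2% FBS, 20 ng/mL EGF, hydrocortisone, insulin, selenite and transferrin. The study's methods give both lines as received from another laboratory. Whether 1CT-A is a clone or a pool, and whether 1CT carries a control vector, is not given in the sources used here, and the labels do not say that the 3 libraries of a line come from separate cultures. The p values therefore measure the spread between these libraries, which may be technical, and the comparison is of 1 line with its depleted version, in which APC depletion and other differences between the lines cannot be told apart.

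The extracellular matrix is the protein and sugar scaffold that cells secrete around themselves. In the gut wall, epithelial cells sit on a basement membrane, a thin sheet of laminins, nidogens and heparan sulfate proteoglycans, while the stroma beneath holds fibronectin, collagens and elastic fibres. Fibronectin is secreted as a dimer and pulled into fibrils by integrins on the cell surface. Elastic fibres form on fibrillin microfibrils with the help of fibulins, and lysyl oxidases then crosslink elastin and collagen. In bulk RNA, fewer cells that make a transcript and less of it per cell cannot be told apart.

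The libraries are QuantSeq libraries, in which reads come from near the 3′ end of a transcript, so counts do not grow with transcript length and isoforms of FN1 and other members are not resolved. The 1CT libraries hold 7788679 to 8452258 counts and the deeper 1CT-A libraries 11158108 to 12602988. A level is given as CPM, the counts of a gene scaled to its library's total, and a fold change is the log2 fold change of 1CT-A over 1CT in edgeR's fit over 12514 tested genes, with its standard error (SE) and the p value adjusted over all of these genes. A gene is called at an adjusted p under 0.05. APC itself has 49.3, 43.8 and 46.6 CPM in 1CT and 31.5, 30 and 34.4 CPM in 1CT-A, without overlap between the lines (log2 fold change -0.58, SE 0.09, adjusted p = 0.00018). The labelled cell type was checked against marker genes. Of 11 epithelial markers, EPCAM, CLDN3 and VIL1 have no count in any library and 5, these included, have at most 3 counts in every library, and the 11 together sum to 41.2 to 45.2 CPM in the 1CT libraries and 23.6 to 30.8 CPM in those of 1CT-A. All 11 mesenchymal markers are counted and sum to 5009 to 6072 CPM in the 1CT libraries and 4527 to 4849 CPM in those of 1CT-A, with VIM at 2029.8, 1960.2 and 1645 CPM in 1CT and 1667, 1740.0 and 1626 CPM in 1CT-A. The marker profile is thus not that of a differentiated colon epithelium, although the label is epithelial. The 3 epithelial markers with enough counts to be tested, KRT18, KRT19 and CLDN7, are all called lower, beside 26.0% of all tested genes. KRT19 reaches the test through 1CT alone, with 20, 27 and 34 counts in 1CT and 0 in each 1CT-A library, and so had to differ. The CPM of CLDN7 overlap between the lines (log2 fold change -0.40, SE 0.13, adjusted p = 0.022). Of the mesenchymal markers, COL3A1 rises (log2 fold change 2.37, SE 0.18, adjusted p = 2.7e-07), VIM, PDGFRB, THY1, COL1A1, ACTA2 and S100A4 fall, S100A4 most (log2 fold change -2.08, SE 0.11, adjusted p = 8.2e-09), and 4 are not called. Over all tested genes 25.0% are called higher and 26.0% lower, and nothing is read from how many markers are called. The part of these markers in the results below was not tested. The 7 markers of endothelial, blood and smooth muscle cells sum to 5.44 to 13.2 CPM in a library, and CDH5 of endothelium and PTPRC of blood cells have no count in any library.

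FN1 encodes fibronectin, the adhesive glycoprotein that most of the cell's matrix fibrils start from. Its level is 45204, 47281 and 40237 CPM in 1CT and 19040.2, 17421 and 17921 CPM in 1CT-A. Every 1CT-A library lies below every 1CT library, by a factor of more than 2 between the closest libraries. The means are 44241 ± 3619 CPM (SD, n = 3) for 1CT against 18128 ± 829 CPM (SD, n = 3) for 1CT-A, and the fit gives a 2.5-fold lower level in 1CT-A (log2 fold change -1.32, SE 0.07, adjusted p = 1.1e-08). FN1 alone holds 4.02% to 4.73% of all counts in the 1CT libraries and 1.74% to 1.90% in those of 1CT-A. A gene of this size can move the scaling of all others, and with each library's total taken without FN1 the log2 fold change of FN1 is -1.33, adjusted p = 2.2e-08.

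Summed over the 55 members, 48774, 51254 and 43878 CPM are counted in the 1CT libraries and 22911, 21396 and 21857 CPM in the 1CT-A libraries. FN1 takes 92.2% of the members' CPM in 1CT and 82.2% in 1CT-A, as counts that are not divided by length. The other 54 members together have 3570.1, 3973 and 3641 CPM in 1CT and 3870.4, 3974 and 3936 CPM in 1CT-A, so that their sums overlap between the lines. The lower total of the list in 1CT-A is thus the lower FN1, and the other members change in both directions around overlapping sums.

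**Figure D1:**
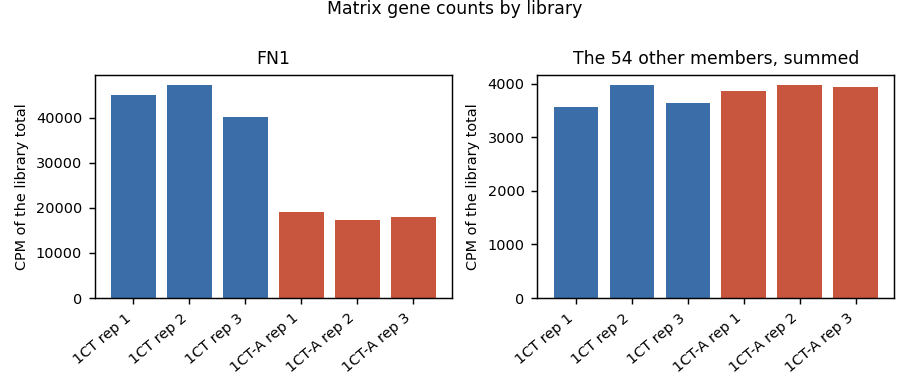
Bars give the CPM of FN1 (left) and the summed CPM of the 54 other members (right) in each of the 3 1CT libraries (blue) and 3 1CT-A libraries (red). The FN1 bars of 1CT stand between 40237 and 47281 CPM and those of 1CT-A between 17421 and 19040.2 CPM, while the summed bars of the others overlap between the lines.

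Promoter sequences are shown for FN1 and FBN2, a pair of well counted members that are lower in 1CT-A, and for TGFBI and FBLN5, a pair that are higher. Each stretch is the 200 bases before the start of the gene in RefSeq on GRCh38.p14, read 5′ to 3′ on the strand of the gene. The build named in the submitters' processing notes is hg19, and these coordinates belong to the RefSeq sequences and not to the counts. Capitals mark matches to any of the 6 motifs searched, of which the cAMP response element TGACGTCA, the GC box GGGCGG and the TATA box TATAAA occur in these stretches. FN1 lies at chr2:215436069-215436268 on the minus strand, FBN2 at chr5:128538246-128538445 on the minus strand, TGFBI at chr5:136028788-136028987 on the plus strand and FBLN5 at chr14:91947033-91947232 on the minus strand, where the more downstream of 2 listed starts is taken.
FN1: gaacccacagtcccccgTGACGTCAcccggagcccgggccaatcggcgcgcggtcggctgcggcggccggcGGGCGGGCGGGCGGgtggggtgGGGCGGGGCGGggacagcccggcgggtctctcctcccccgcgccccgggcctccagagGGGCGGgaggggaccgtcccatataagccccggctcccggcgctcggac
FBN2: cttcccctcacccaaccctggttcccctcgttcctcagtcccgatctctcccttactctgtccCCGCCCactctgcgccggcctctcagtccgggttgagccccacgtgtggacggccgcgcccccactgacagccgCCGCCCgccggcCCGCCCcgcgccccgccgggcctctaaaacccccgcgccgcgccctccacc
TGFBI: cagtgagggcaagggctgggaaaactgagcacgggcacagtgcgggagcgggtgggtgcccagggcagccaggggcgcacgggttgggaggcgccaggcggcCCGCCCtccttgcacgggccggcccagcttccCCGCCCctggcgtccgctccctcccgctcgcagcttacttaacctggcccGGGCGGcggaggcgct
FBLN5: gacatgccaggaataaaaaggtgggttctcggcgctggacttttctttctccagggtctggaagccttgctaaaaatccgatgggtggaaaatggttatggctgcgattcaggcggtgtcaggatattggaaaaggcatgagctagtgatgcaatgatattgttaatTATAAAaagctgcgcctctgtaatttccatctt

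The FN1 promoter holds the cAMP response element 183 bases before the start and 6 GC boxes, some of them adjoining, between 129 and 49 bases before it. FBN2 and TGFBI hold 3 GC boxes each and no other motif of the search, and FBLN5 holds a TATA box 33 bases before the start and no GC box in this stretch. Over windows of 300 bases (250 before to 50 after the start), 42 of the 55 members matched 56 windows of the RefSeq table, since some genes have several starts. Counting both strands, 38 of the 56 windows (67.9%), from 32 members, hold a GC box, beside 45.0% of all 35116 windows. The AP-1 motif TGANTCA is found in 7 of the 56 windows (12.5%, in MFAP2, ECM1, LAMB3, POSTN, EMILIN2, LAMA3 and SRPX2) and in 7.71% of all windows, and the TEAD motif GGAATG in 10 of the 56 (17.9%) and in 14.0%. TATAAA is found in 5 of the 56 windows (8.93%, in ECM1, FMOD, THBS2, POSTN and FBLN5) and in 11.5% of all windows. TGACGTCA is found in 1 window each of FN1 and LTBP1 (3.57% of the 56) and in 1.85% of all windows. The TCF/LEF motif ATCAAAG, which the factors downstream of β-catenin recognise, is in none of the 56 windows and in 2.62% of all. A match is only a run of letters in this window.

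Of the 55 members, 50 have enough counts to be tested. Of these, 14 are called higher and 27 called lower in 1CT-A, which is 82.0% of the tested members, beside 51.0% of all tested genes (25.0% higher and 26.0% lower). At least 2-fold and called are 8 higher and 15 lower members, beside 4.00% and 9.92% of all tested genes. The lines do not overlap in CPM for 42 of the tested members, beside 59.7% of all tested genes. The median log2 fold change is -0.52 over the tested members and -0.01 over all tested genes. Since the list was made with results known, nothing is read from these shares. The counts by role below stand beside the same 51.0% of all tested genes, and nothing is read from them either. The filter also lets a gene pass through 1 line alone, as with MFAP5, FMOD, BGN, POSTN, MATN2, LAMA3 and TNC. Such a gene was selected to differ. The fold changes of these genes are therefore given below without a p value. The 5 members that were not tested are TNXB, FBLN2, ELN, MFAP2 and VTN.

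**Figure D2:**
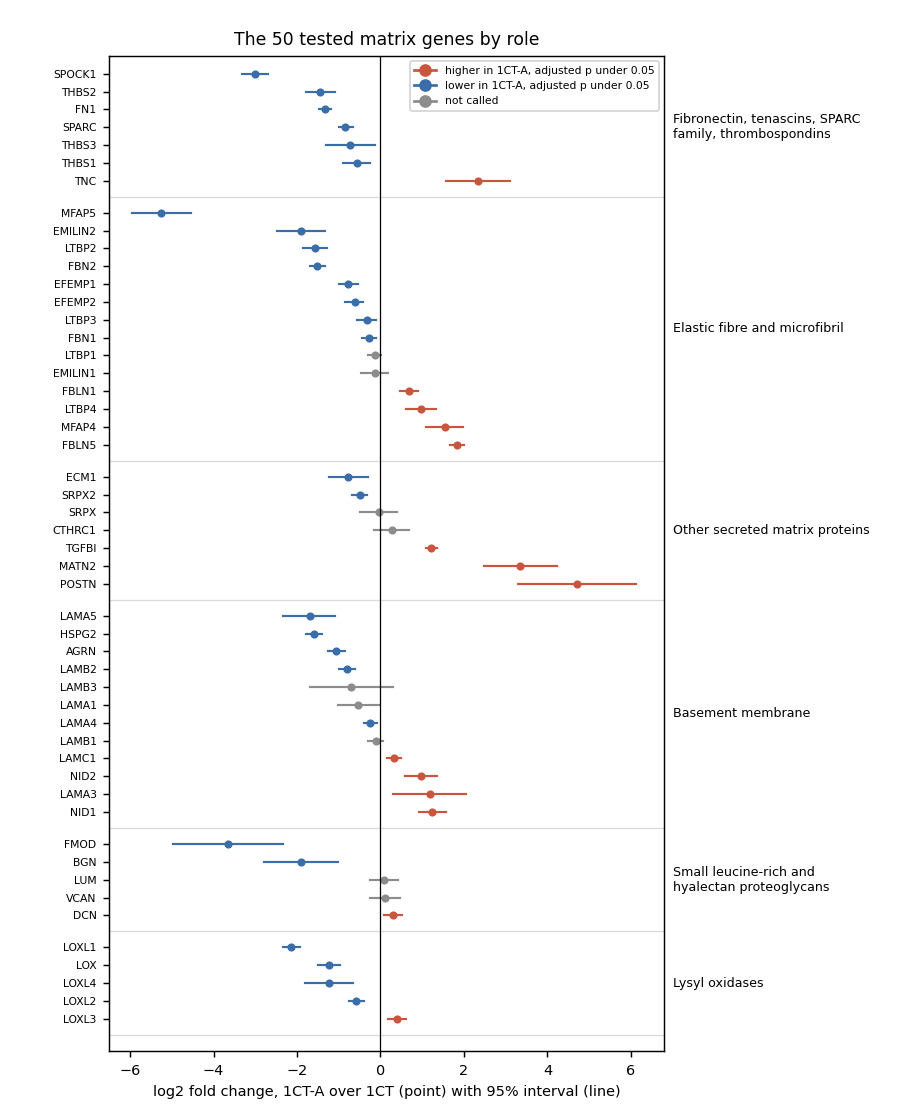
Points give the log2 fold change of 1CT-A over 1CT for the 50 tested members, with the 95% interval of the fit as a line, in 6 groups by role. Red marks the 14 members called higher, blue the 27 called lower and grey the 9 not called, with MFAP5 at -5.25 and POSTN at 4.70 as the ends of the range. The counts of HSPG2, LOXL3 and MFAP4 run with those of an overlapping gene.

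Among fibronectin's group of adhesive and adhesion-modulating glycoproteins, 6 of the 7 tested members fall and TNC rises. SPARC, a collagen-binding glycoprotein that loosens cell adhesion, has 561, 674 and 557 CPM in 1CT and 331, 356 and 343 CPM in 1CT-A. The lines do not overlap, and SPARC is 1.79-fold lower in 1CT-A (log2 fold change -0.84, SE 0.08, adjusted p = 1.9e-06). SPOCK1, a testican proteoglycan related to SPARC, falls further, from 22.6, 21.7 and 21.2 CPM in 1CT to 2.69, 2.90 and 2.78 CPM in 1CT-A, with a tight spread in both lines (log2 fold change -3.0, SE 0.14, adjusted p = 5e-09). Thrombospondins are trimeric or pentameric glycoproteins that bind matrix and cell surface proteins, and the trimeric THBS1 and THBS2 restrain vessel growth. THBS1 has 54.5, 79.2 and 45.6 CPM in 1CT and 41.7, 42.2 and 40.3 CPM in 1CT-A, and the highest value belongs to 1CT replicate 2 (log2 fold change -0.57, SE 0.15, adjusted p = 0.0067). Without that library its log2 fold change is -0.31, adjusted p = 0.022. THBS2 has 11.1, 12.4 and 12.8 CPM in 1CT and 4.48, 4.65 and 4.6 CPM in 1CT-A, with no overlap (log2 fold change -1.44, SE 0.16, adjusted p = 6.7e-06). THBS3 is thinly counted, with 21 counts in each 1CT library and 17 to 20 in the deeper 1CT-A libraries. Its log2 fold change is -0.72 (SE 0.27, adjusted p = 0.038), and the call is lost without any 1 of the 6 libraries (adjusted p from 0.074 to 0.1) and with DESeq2 (adjusted p = 0.22). TNC encodes tenascin C, a glycoprotein made in development and wound repair that weakens adhesion to fibronectin. It has 4, 8 and 4 counts in 1CT and 32, 47 and 41 counts in 1CT-A, and as CPM it is higher in every 1CT-A library than in any 1CT library (log2 fold change 2.33, SE 0.36). TNXB, the tenascin of loose connective tissue, has at most 2 counts in a library. It is entered in 7 rows of each file, and its copy TNXA makes any count on it uncertain.

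The elastic fibre and microfibril group divides, with 4 of the 14 tested members higher, 8 lower and 2 not called. Fibrillins build the microfibrils. FBN1 has 94.6, 97.7 and 90.8 CPM in 1CT and 86, 77.1 and 77.6 CPM in 1CT-A, close together but without overlap (log2 fold change -0.27, SE 0.08, adjusted p = 0.011). The FBN1 call is lost without 1CT-A replicate 2 (-0.24, adjusted p = 0.063) or without 1CT-A replicate 3 (-0.24, adjusted p = 0.067). FBN2, the fibrillin of developing tissue, has 323, 376 and 320.2 CPM in 1CT and 129, 113 and 125 CPM in 1CT-A. It is 2.84-fold lower in 1CT-A, well outside the spread of either line (log2 fold change -1.51, SE 0.08, adjusted p = 1.8e-08).

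Fibulins bridge fibrillin microfibrils, elastin and the cell surface. FBLN5, which is needed to assemble elastic fibres and binds lysyl oxidase-like proteins, has 118, 133 and 111 CPM in 1CT and 427, 439 and 459 CPM in 1CT-A. Its lowest 1CT-A library is more than 3 times its highest 1CT library, and the fit gives a 3.57-fold higher level (log2 fold change 1.84, SE 0.08, adjusted p = 1.5e-09). FBLN1, a fibulin that binds fibronectin, rises less, with 47.1, 55.4 and 63 CPM in 1CT and 90.6, 91.8 and 90.4 CPM in 1CT-A (log2 fold change 0.68, SE 0.10, adjusted p = 9.7e-05). EFEMP1 (fibulin-3) and EFEMP2 (fibulin-4) go the other way. EFEMP1 has 52.8, 64.8 and 50.6 CPM in 1CT and 33.4, 35.2 and 32.8 CPM in 1CT-A (log2 fold change -0.77, SE 0.10, adjusted p = 3.6e-05), and EFEMP2 has 79.5, 88.9 and 98.2 CPM in 1CT and 59.7, 64.3 and 53.9 CPM in 1CT-A (log2 fold change -0.62, SE 0.10, adjusted p = 0.00017). FBLN2 has 6, 2 and 4 counts in 1CT and none in 1CT-A, which makes it at least 5.73-fold lower against a limit of 3 counts over the 3 1CT-A libraries. The bound takes the 12 counts of 1CT as they are, without their own counting error. The limit covers counting error only, as do the other counting intervals below.

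Latent TGF-β binding proteins tie latent TGF-β to microfibrils or, as LTBP2 does, help to shape them. LTBP1 has 203, 223 and 232 CPM in 1CT and 208, 206 and 199.8 CPM in 1CT-A, with overlapping lines (log2 fold change -0.14, 95% interval -0.30 to 0.02, adjusted p = 0.12). LTBP2 has 30.3, 40.3 and 31.3 CPM in 1CT and 10.2, 12.7 and 12.5 CPM in 1CT-A and is 2.95-fold lower in 1CT-A (log2 fold change -1.56, SE 0.14, adjusted p = 1e-06). LTBP3 has 68.7, 63.4 and 82.8 CPM in 1CT and 61.5, 54.4 and 59.6 CPM in 1CT-A, and all 1CT-A libraries are below the lowest 1CT library (log2 fold change -0.33, SE 0.11, adjusted p = 0.019). Its call is lost without 1CT replicate 3 (-0.20, adjusted p = 0.059), 1CT-A replicate 2 (-0.27, adjusted p = 0.093) or 1CT-A replicate 3 (-0.34, adjusted p = 0.052). LTBP4, which works with FBLN5 in elastic fibre assembly, rises as FBLN5 does, with 5.21, 6.76 and 5.14 CPM in 1CT and 11.1, 11.1 and 12.2 CPM in 1CT-A (log2 fold change 0.97, SE 0.16, adjusted p = 0.00026).

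The microfibril-associated proteins MFAP4 and MFAP5 move in opposite directions. MFAP4, an elastin and fibrillin binding protein, has 7.93, 10.7 and 4.75 CPM in 1CT and 22.3, 21.2 and 26.5 CPM in 1CT-A (log2 fold change 1.54, SE 0.20, adjusted p = 3.9e-05), and its counts run with those of the overlapping gene MAPK7, given below. MFAP5 coats fibrillin microfibrils and binds TGF-β family growth factors. It has 87, 103 and 81 counts in 1CT and 6, 2 and 2 counts in 1CT-A, so that few counts are left in 1CT-A (log2 fold change -5.25, SE 0.32). From the summed counts, 271 against 10, the ratio of CPM is 38.8, with an exact 95% counting interval of 20.8 to 81.9. Emilins are glycoproteins at the border of elastin and microfibrils. EMILIN1 has 20.7, 15.1 and 23 CPM in 1CT and 17.2, 17.9 and 19.8 CPM in 1CT-A, with overlap (log2 fold change -0.13, 95% interval -0.46 to 0.19, adjusted p = 0.48), while EMILIN2 falls from 5.80, 5.55 and 7.70 CPM to 1.79, 1.23 and 2.14 CPM (log2 fold change -1.90, SE 0.26, adjusted p = 5.4e-05). MFAP2 has 2, 4 and 2 counts in 1CT and none in 1CT-A, at least 3.82-fold lower against the same limit of 3 counts and with its 8 counts in 1CT taken as they are. ELN, the elastin gene itself, has 3 counts in 1CT replicate 2 and none elsewhere, so no fold is given.

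Of the other secreted matrix proteins, 3 of the 7 tested members rise, 2 fall and 2 are not called. TGFBI encodes a TGF-β induced adhesion protein with fasciclin domains that binds integrins and collagen. Its level is 501, 526 and 554 CPM in 1CT and 1248, 1275 and 1271 CPM in 1CT-A. The libraries of each line lie close together and far from those of the other, 2.33-fold higher in 1CT-A (log2 fold change 1.22, SE 0.06, adjusted p = 1.1e-08).

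POSTN encodes periostin, a second fasciclin domain protein, of fibroblasts and wound stroma. It has 0, 0 and 2 counts in 1CT and 24, 36 and 28 counts in 1CT-A, which is near the limit of detection in 1CT. The ratio of CPM from the summed counts, 88 against 2, is 30.7 with an exact 95% counting interval of 8.25 to 257, and the fit gives a log2 fold change of 4.70 (SE 0.65). Without 1CT replicate 3 the other 1CT libraries are at 0, and the fitted log2 fold change (7.70) then depends on the prior count. MATN2, a filament-forming matrilin, has 10, 17 and 0 counts in 1CT and 110, 131 and 169 counts in 1CT-A and is higher in every 1CT-A library (log2 fold change 3.35, SE 0.41). It passes the filter through 1CT-A alone. The 0 of 1CT replicate 3 is below the limit of 3 counts, or 0.385 CPM, of that library. ECM1, a glycoprotein that binds perlecan and fibulins, has 5.09, 4.47 and 4.37 CPM in 1CT and 2.87, 2.72 and 2.78 CPM in 1CT-A (log2 fold change -0.77, SE 0.21, adjusted p = 0.0088), a call that is lost with DESeq2 (adjusted p = 0.07). SRPX2, a secreted sushi domain protein, has 42.8, 44.2 and 46 CPM in 1CT and 31.2, 31.7 and 33.3 CPM in 1CT-A (log2 fold change -0.50, SE 0.09, adjusted p = 0.00031). Its relative SRPX has 12.4, 12.6 and 7.83 CPM in 1CT and 9.05, 14 and 9.84 CPM in 1CT-A, with overlap and no direction (log2 fold change -0.04, 95% interval -0.48 to 0.39, adjusted p = 0.87).

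CTHRC1, a secreted collagen triple helix repeat protein of injured and tumour stroma, varies most within a line among the well counted members. It has 70.2, 117 and 54.7 CPM in 1CT and 86.6, 111 and 101 CPM in 1CT-A, with the highest value of all in 1CT replicate 2 and the lowest in 1CT replicate 3. The lines overlap (log2 fold change 0.27, 95% interval -0.16 to 0.69, adjusted p = 0.28). Without 1CT replicate 2 it is called higher (0.63, adjusted p = 0.0009), and without the filter on low counts too (0.31, adjusted p = 0.0026). VTN, the gene of vitronectin, a plasma protein of the liver, has no count in any library, which allows at most 0.122 CPM over the 1CT libraries and 0.0853 CPM over the 1CT-A libraries.

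All 12 basement membrane members are tested, and 4 are higher, 5 lower and 3 not called. Nidogens link the laminin and collagen IV networks, and both rise. NID1 has 12.2, 11.8 and 7.58 CPM in 1CT and 25.2, 25 and 26.8 CPM in 1CT-A, 2.37-fold higher in 1CT-A (log2 fold change 1.24, SE 0.15, adjusted p = 1.8e-05). NID2 has 5.68, 5.19 and 4.24 CPM in 1CT and 9.32, 11.8 and 9.52 CPM in 1CT-A (log2 fold change 0.98, SE 0.18, adjusted p = 0.00051). Neither gene has a 1CT library that reaches the lowest 1CT-A library.

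Laminins are trimers of an α, a β and a γ chain. LAMA4, LAMB1 and LAMC1, which together form a laminin of vessels and stroma, are all well counted and change little. LAMA4 has 127, 137 and 142 CPM in 1CT and 118, 117 and 117 CPM in 1CT-A (log2 fold change -0.24, SE 0.07, adjusted p = 0.014), a call that is lost without 1CT-A replicate 2 (-0.23, adjusted p = 0.055), without 1CT-A replicate 3 (-0.23, adjusted p = 0.064) or without the filter (-0.20, adjusted p = 0.058). LAMB1 has 159, 187 and 169 CPM in 1CT and 162, 174 and 153 CPM in 1CT-A and is not called (log2 fold change -0.11, 95% interval -0.29 to 0.06, adjusted p = 0.26). LAMC1 rises slightly, with 166, 163 and 136 CPM in 1CT and 202, 200.3 and 197 CPM in 1CT-A (log2 fold change 0.33, SE 0.08, adjusted p = 0.0039).

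The α chain of the gut's main epithelial laminins, LAMA5, falls from 6.86, 10.0 and 7.45 CPM to 1.25, 3.25 and 3.09 CPM (log2 fold change -1.70, SE 0.29, adjusted p = 0.00029), and LAMB2 falls from 38.1, 37.1 and 36.3 CPM to 20.6, 22.4 and 22.5 CPM (log2 fold change -0.81, SE 0.09, adjusted p = 1e-05). LAMA3 and LAMB3, chains of an anchoring laminin of epithelia, are counted thinly. LAMA3 has 12, 6 and 4 counts in 1CT and 16, 30 and 28 counts in 1CT-A (log2 fold change 1.18, SE 0.40), and LAMB3 has 10, 7 and 13 counts in 1CT and 14, 7 and 6 counts in 1CT-A (log2 fold change -0.70, 95% interval -1.68 to 0.29, adjusted p = 0.22). LAMA3 passes the filter through 1CT-A alone, where it is higher. Its rise is not called without 1CT replicate 2 (1.05), 1CT replicate 3 (0.94), 1CT-A replicate 2 (1.00) or 1CT-A replicate 3 (1.14). With DESeq2 it is not called either (1.22). LAMA1, an α chain of embryonic basement membranes, has 34, 31 and 37 counts in 1CT and 29, 40 and 35 counts in 1CT-A, lower as CPM in every 1CT-A library but short of the threshold (log2 fold change -0.53, 95% interval -1.03 to -0.03, adjusted p = 0.073).

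The heparan sulfate proteoglycans of the basement membrane both fall. AGRN, agrin, has 139, 145 and 166 CPM in 1CT and 79, 67.9 and 74.9 CPM in 1CT-A and is 2.08-fold lower (log2 fold change -1.06, SE 0.09, adjusted p = 1.1e-06). HSPG2, perlecan, has 150.1, 147 and 167 CPM in 1CT and 58.3, 48.6 and 51.3 CPM in 1CT-A (log2 fold change -1.59, SE 0.09, adjusted p = 2.7e-08), with the lines far apart. These counts cannot be told from those of LDLRAD2, a gene on the other strand, as described below.

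Of the 5 members that are interstitial proteoglycans, DCN rises, BGN and FMOD fall and LUM and VCAN are not called. Decorin, biglycan, lumican and fibromodulin are small leucine-rich proteoglycans that bind collagen fibrils. DCN has 71.9, 78.5 and 61.5 CPM in 1CT and 80.6, 96.3 and 91.3 CPM in 1CT-A, with the lowest 1CT-A library just above the highest 1CT library (log2 fold change 0.30, SE 0.10, adjusted p = 0.02). The call is lost without 1CT-A replicate 2 (0.25, adjusted p = 0.087) or 1CT-A replicate 3 (0.29, adjusted p = 0.064). LUM has 15.9, 21.6 and 13.1 CPM in 1CT and 17.6, 19.1 and 18.4 CPM in 1CT-A, with overlap (log2 fold change 0.08, 95% interval -0.25 to 0.42, adjusted p = 0.67). BGN has 19, 16 and 29 counts in 1CT and 6, 13 and 6 counts in 1CT-A (log2 fold change -1.90, SE 0.41) and FMOD 15, 13 and 10 counts in 1CT and 3, 1 and 0 counts in 1CT-A (log2 fold change -3.66, SE 0.61). Both pass the filter through 1CT alone. For FMOD the summed counts of 38 and 4 give a ratio of CPM of 13.6, with an exact 95% counting interval of 4.90 to 52.5. VCAN, versican, the large hyaluronan-binding proteoglycan, has 6.86, 9.54 and 8.35 CPM in 1CT and 8.87, 8.51 and 9.92 CPM in 1CT-A (log2 fold change 0.11, 95% interval -0.25 to 0.46, adjusted p = 0.61).

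Lysyl oxidases are copper enzymes that oxidise lysines of collagen and elastin so that the chains crosslink. All 5 are called, 4 lower and LOXL3 higher, beside 51.0% of all tested genes. LOX has 142, 148 and 101 CPM in 1CT and 52.2, 64.3 and 55.1 CPM in 1CT-A, and 1CT replicate 3 stands below the other 1CT libraries but above every 1CT-A library (log2 fold change -1.23, SE 0.13, adjusted p = 4.1e-06). LOXL1, which acts on elastin and binds FBLN5, has 71.3, 65.6 and 68.8 CPM in 1CT and 15.4, 16.9 and 15.6 CPM in 1CT-A. It is 4.41-fold lower in 1CT-A, the largest fall of the family, and the spread within each line is small (log2 fold change -2.14, SE 0.09, adjusted p = 1.7e-09). LOXL2 has 67.6, 80.5 and 77.2 CPM in 1CT and 50, 52.6 and 52.5 CPM in 1CT-A (log2 fold change -0.58, SE 0.09, adjusted p = 0.00011), and LOXL4 has 28, 38 and 28 counts in 1CT and 16, 21 and 22 counts in 1CT-A (log2 fold change -1.23, SE 0.27, adjusted p = 0.0018). LOXL3 has 23.9, 21.5 and 20.9 CPM in 1CT and 28.6, 29.7 and 31.2 CPM in 1CT-A (log2 fold change 0.39, SE 0.10, adjusted p = 0.005), with the limit on its counts given below. Summed, the 5 lysyl oxidases have 309, 320.4 and 272 CPM in 1CT and 148, 165 and 156 CPM in 1CT-A.

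**Figure D3:**
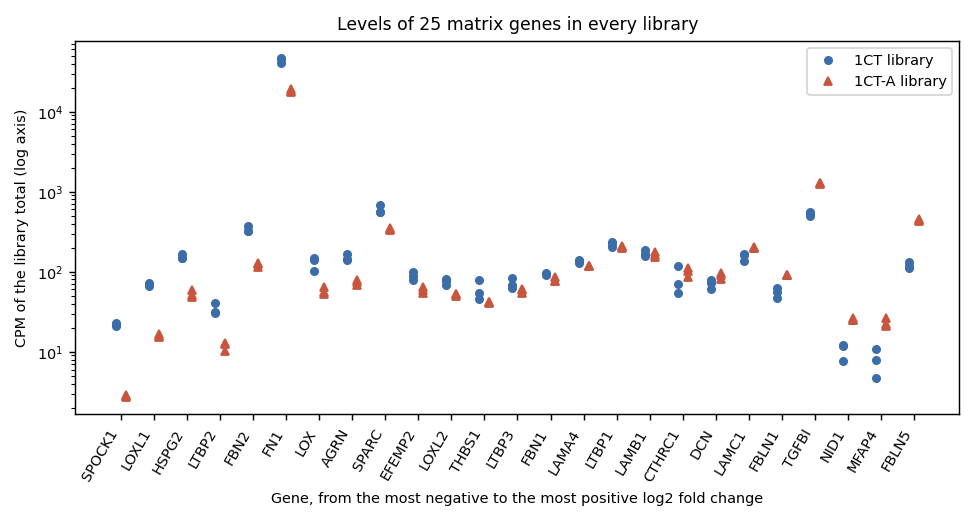
Points give the CPM, on a log axis, of the 25 members that are called, at least 2-fold and at 10 CPM or more, or that reach a mean of 50 CPM, in each 1CT library (circles) and 1CT-A library (triangles). The genes run from SPOCK1 (-3.0) to FBLN5 (1.84) by log2 fold change, and the 2 kinds of symbol overlap only for LTBP1, LAMB1 and CTHRC1.

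Whether the counting used strand is not given in the sources used here, so members that overlap another gene were checked against it. In GENCODE 44 on GRCh38, exons of HSPG2 overlap those of LDLRAD2 on the opposite strand. LDLRAD2 has 1264, 1216 and 1293 counts in 1CT and 650, 551 and 643 in 1CT-A, beside 1269, 1221 and 1297 counts in 1CT and 651, 554 and 646 counts in 1CT-A for HSPG2. The ratio of LDLRAD2 to HSPG2 is 0.995 to 0.998 in every library, so that nearly the same number is entered for both genes and its source cannot be told apart. The same holds for LOXL3 and HTRA2, a mitochondrial protease gene on the opposite strand, with ratios of 0.982 to 1.01. HTRA2 has 204, 180 and 164 counts in 1CT and 321, 337 and 386 in 1CT-A, beside 202, 178 and 163 counts in 1CT and 319, 338 and 393 counts in 1CT-A for LOXL3. MFAP4 runs with MAPK7, a kinase gene on the opposite strand, which has 80, 106 and 45 counts in 1CT and 201, 199 and 281 in 1CT-A, with ratios of 0.807 to 1.22. Of the 33 members that have at least 10 counts in every library and a neighbour within 50 kb counted in every library, only HSPG2 and LOXL3 have a neighbour within 10% of their counts in all 6 libraries. Without HSPG2, LOXL3 and MFAP4, 12 members are higher and 26 lower. LOX also overlaps a gene, SRFBP1, whose counts of 163, 167 and 187 in 1CT and 201, 197 and 177 in 1CT-A do not follow those of LOX.

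**Figure D4:**
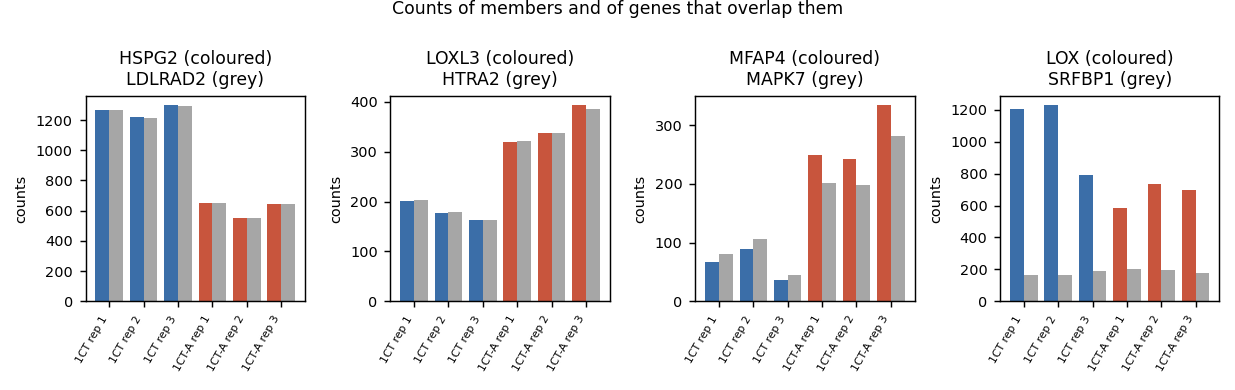
Paired bars give the counts of a member (coloured, blue for 1CT and red for 1CT-A) and of a gene that overlaps it (grey) in each of the 6 libraries. HSPG2 and LDLRAD2, and LOXL3 and HTRA2, have bars of nearly the same height in every library, MFAP4 and MAPK7 run side by side, and LOX and SRFBP1 do not.

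Matrix glycoprotein and proteoglycan genes outside the list were taken from a set of 75, of which 22 have enough counts to be tested. Of these 13 are lower and 3 higher in 1CT-A, with a median log2 fold change of -0.90, beside 26.0% lower, 25.0% higher and -0.01 over all tested genes. The lower genes CILP2, PCOLCE2, ABI3BP, TINAGL1 and PAPLN pass the filter through 1CT alone and were selected to differ. With at least 10 counts required in every library, 8 are lower. Nothing is read from these counts or from the median. SPON2, a secreted F-spondin family protein, rises most, with 739, 825 and 826 CPM in 1CT and 2488, 2218 and 2288 CPM in 1CT-A (log2 fold change 1.51, SE 0.07, adjusted p = 5.5e-09). ESM1, endocan, a small secreted proteoglycan, has 5.92, 5.19 and 5.39 CPM in 1CT and 15.2, 15.3 and 15.3 CPM in 1CT-A (log2 fold change 1.43, SE 0.14, adjusted p = 3e-06). The largest fall among the well counted genes is SRGN, serglycin, a proteoglycan of secretory granules, with 256, 251 and 219.9 CPM in 1CT and 8.87, 7.72 and 2.86 CPM in 1CT-A, and 1CT-A replicate 3 is the lowest (log2 fold change -5.28, SE 0.22, adjusted p = 1.7e-09). SMOC1, a basement membrane relative of SPARC, has 106, 98.8 and 82.3 CPM in 1CT and 37.5, 30.9 and 29.4 CPM in 1CT-A (log2 fold change -1.59, SE 0.11, adjusted p = 1.9e-07), and EDIL3, an integrin-binding secreted protein, has 17.6, 25.7 and 19.4 CPM in 1CT and 9.5, 12.5 and 9.28 CPM in 1CT-A (log2 fold change -1.05, SE 0.17, adjusted p = 0.00017).

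Among 24 receptors for the members' proteins, 19 are tested, with 5 higher, 9 lower and a median log2 fold change of -0.33, beside 25.0% higher and 26.0% lower over all tested genes. ITGB8, among the lower receptors, passes the filter through 1CT alone. The main fibronectin receptor is the integrin of the ITGA5 and ITGB1 chains. ITGA5 has 91.6, 95.7 and 108 CPM in 1CT and 86.3, 78.5 and 84.3 CPM in 1CT-A (log2 fold change -0.28, SE 0.09, adjusted p = 0.015), a call that is lost without 1CT-A replicate 2 (-0.23, adjusted p = 0.082), and ITGB1 has 365, 364 and 320.5 CPM in 1CT and 316, 355 and 352 CPM in 1CT-A, with overlap (log2 fold change -0.07, 95% interval -0.23 to 0.08, adjusted p = 0.41). Of 32 enzymes that build, sulfate or trim glycosaminoglycan chains, 28 are tested, with 4 higher, 14 lower and a median log2 fold change of -0.37, beside the same 25.0% and 26.0% of all tested genes. SULF1 and CHST15, among the lower enzymes, pass the filter through 1CT alone. CHPF, a chondroitin polymerising factor, has 67.8, 67.5 and 81.5 CPM in 1CT and 32.3, 31.3 and 26.5 CPM in 1CT-A (log2 fold change -1.31, SE 0.11, adjusted p = 6.9e-07), the only enzyme of this list that is called, at least 2-fold and at 10 CPM or more. The 4 higher enzymes become 2 without 1CT replicate 1, 1CT-A replicate 1 or 1CT-A replicate 2, and 1 without 1CT-A replicate 3.

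**Figure D5:**
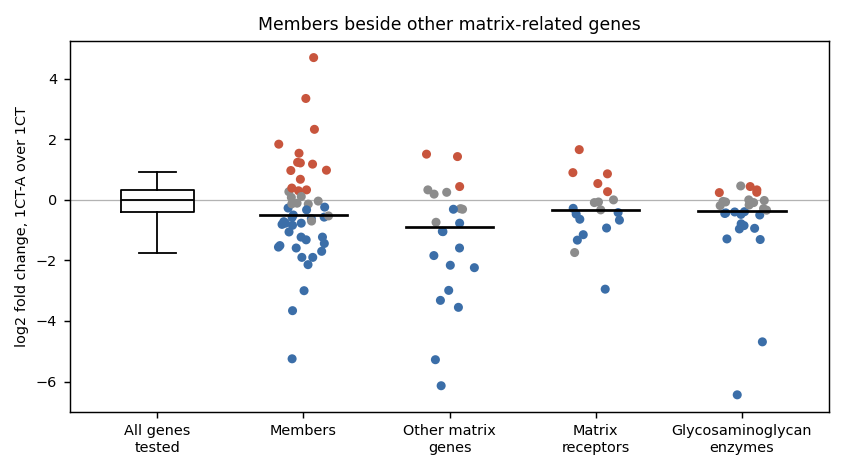
Each point is the log2 fold change of 1CT-A over 1CT of 1 tested gene, for the 50 members, 22 other matrix genes, 19 matrix receptors and 28 glycosaminoglycan enzymes (red called higher, blue called lower, grey not called), with a black line at the median of each list. The box at the left gives the median and quartiles of all 12514 tested genes, with whiskers from the 5th to the 95th percentile. The medians are -0.52, -0.90, -0.33 and -0.37, and -0.01 for all genes.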

How the data were processed

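The series was measured as bulk QuantSeq 3′ RNA-seq of 3 libraries of 1CT and 3 of 1CT-A, grouped by their GEO labels. The deposited values are raw counts per gene symbol, 25737 entries in each file. The submitters' processing notes name Bowtie2, edgeR and hg19, without roles. The counting tool and its strand setting are not given in the sources used here. Counts of 286 repeated symbols (1561 entries) were summed. CPM used each file's total. Genes were filtered with filterByExpr (min.count 10), scaled by TMM and tested between the lines with edgeR 4.0.16 (quasi-likelihood, two-sided, R 4.3.3), with Benjamini-Hochberg adjustment over 12514 genes. The procedure was tested on simulated data. Counting intervals are exact at 95%, and a count of 0 was given a limit of 3 counts.

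The members and lists were chosen with earlier results of these data known. FN1 and members called with a log2 fold change of at least 1 in size and a mean of 10 CPM, or with a mean of 50 CPM, are given in full, the others by levels or counts. From each further list up to 3 rises and 3 falls that meet the first rule are named, with ITGA5 and ITGB1 and the markers VIM, COL3A1, S100A4, KRT19 and CLDN7 beside them. Replicates differed by more than sampling noise (chi-square per degree of freedom 3.11 to 9.00), and each was fitted as 1 sample. This spread does not show that the libraries of a line are separate cultures. Alternatives were other scalings and filters, DESeq2 1.42.0, a replicate block, other thresholds and leaving out each library. The library size without FN1 and the count without HSPG2, LOXL3 and MFAP4 were chosen after seeing the data. Some items named by these rules are not reported here.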

Additional observations from a re-analysis of the deposited data

How the results depend on the processing

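The 14 higher and 27 lower members were 14 and 27 with DESeq2 size factors, with library size only and with library size without FN1, 15 and 27 without a filter, 10 and 24 with at least 10 counts in every library, 13 and 26 with DESeq2, 12 and 26 without HSPG2, LOXL3 and MFAP4, and 7 and 15 at a fold of at least 2 with an unadjusted p under 0.01. At that last threshold the receptors gave 1 higher and 3 lower and the glycosaminoglycan enzymes 0 and 4. Leaving out 1 library gave 12 to 14 higher and 23 to 26 lower members, a median log2 fold change of -0.54 to -0.41, and 1 to 5 higher glycosaminoglycan enzymes, which were 2 with DESeq2 and 1 at an adjusted p under 0.01. Other matrix genes gave 5 higher without a filter and 8 lower with at least 10 counts in every library, where fewer genes were tested. Deviations of same-numbered libraries of the lines correlate at -0.161, 0.220 and -0.139 over 8224 genes. Those of differently numbered libraries correlate at -0.290 to 0.345. These values cannot decide whether libraries of the same number share a batch, which the labels do not say. With the replicate block 14 members were higher and 26 lower, with a median of -0.52, THBS3 was no longer called (-0.73, adjusted p = 0.071 in edgeR), and 2 glycosaminoglycan enzymes were higher. Under these alternatives the sign turned only for uncalled members. EMILIN1 ranged from -0.29 to 0.01 with 1 library left out, LUM from -0.05 to 0.30, VCAN from -0.01 to 0.22 and SRPX from -0.24 to 0.07, and SRPX was 0.00 without a filter. Of 642 values of single members under the alternatives, 607 kept their direction and side of the threshold. The cause of these changes was not tested. Depth limits the members at a few counts, where a level under 3 counts (0.238 to 0.385 CPM) cannot be told from 0.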

Other observations

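Some thinly counted genes of the further lists have few counts in 1CT-A beside 1CT, and they are given here as counts because they were chosen after their values were seen. TINAGL1, a matricellular relative of the basement membrane antigen TINAG, has 60, 58 and 47 counts in 1CT and 1, 1 and 1 counts in 1CT-A. SULF1, an extracellular sulfatase that trims heparan sulfate, has 31, 26 and 28 counts in 1CT and 0, 1 and 0 counts in 1CT-A. CHST15, which sulfates chondroitin, has 48, 55 and 62 counts in 1CT and 0, 9 and 0 counts in 1CT-A, with all its 1CT-A counts in replicate 2. PAPLN, papilin, has 71, 82 and 86 counts in 1CT and 3, 18 and 14 counts in 1CT-A, and ABI3BP, a secreted collagen-binding protein, has 70, 98 and 88 counts in 1CT and 9, 8 and 15 counts in 1CT-A. The filter on low counts is passed through 1CT alone by TINAGL1, SULF1, CHST15, PAPLN and ABI3BP, so no test is given.

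Of the 17 integrin chains of the receptor list, 13 are tested by edgeR, of which ITGA1, ITGA4 and ITGB3 are called higher in 1CT-A, 6 are called lower (ITGA5, ITGA6, ITGA7, ITGAV, ITGB5 and ITGB8) and 4 are not called. Beside these stand 25.0% higher and 26.0% lower over all tested genes, and nothing is read from the counts. ITGB8 passes the filter through 1CT alone and had to differ. The levels of 4 chains, chosen after their values were seen, are given without a test. ITGB3, the β chain of a vitronectin and fibronectin receptor, has 2.25, 4.47 and 2.57 CPM in 1CT and 9.95, 10.5 and 9.84 CPM in 1CT-A. ITGA4, an α chain that binds fibronectin and VCAM1, has 34.9, 32.2 and 23.8 CPM in 1CT and 57.8, 61 and 56.3 CPM in 1CT-A. ITGB5, a β chain of a vitronectin receptor, has 396, 459.5 and 428 CPM in 1CT and 280.4, 279 and 269.7 CPM in 1CT-A, and ITGB8, a β chain that binds latent TGF-β, has 17, 14 and 8 counts in 1CT and 2, 5 and 0 counts in 1CT-A.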
